A study of Locusta migratoria with 12 samples.

Results

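The miRNAs miR-275 and miR-305 were followed in the fat body of adult female migratory locusts (Locusta migratoria) on days 0, 2, 4 and 6 of adult life, counted from eclosion (the final moult). The members were rows of a miRNA count table named miR-275 or miR-305 under an arthropod species prefix, and each miRNA was represented by its row with the highest total over the 12 libraries. These rows were aga-miR-275, a name of the malaria mosquito, and isc-miR-305, a name of the deer tick. The fly row dme-miR-305-5p differed from isc-miR-305 by at most about 1% in any library. The 2 members were among 100 miRNAs left after rows that repeated the same reads had been joined. The labels give each age 3 libraries of fat body from females and name no treatment or genotype; whether the libraries came from separate animals is not stated, so p-values measure the spread between libraries, which may be technical.

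In flies and mosquitoes, miR-275 and miR-305 are made from neighbouring hairpins of the same cluster. In the mosquito Aedes aegypti, miR-275 is needed for blood digestion and egg development and acts in part through the calcium pump SERCA. In Drosophila, miR-305 regulates the Notch and insulin pathways in intestinal stem cells. The insect fat body stores nutrients and makes yolk proteins in the reproducing female, and in the locust yolk protein synthesis starts in the days after eclosion under juvenile hormone. The position of the cluster in the locust genome and the mature sequences were not used here.

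The libraries held between 387427 counts (day 0 replicate 1) and 2309395 counts (day 2 replicate 1) after joining. Day 0 replicate 1 stood apart. Across miRNAs, its log2 levels had a median correlation of 0.86 with the other libraries, and the remaining 11 had medians between 0.93 and 0.98. It held 1896 counts of miRNAs that the table names only in moths and butterflies, against 0 to 10 in each other library. The levels, changes, spread and ratio of the members are therefore given with and without it. The ovary and early embryo list had 4 of its 5 miRNAs at 0 counts and the other, miR-989, at 113 counts in its highest row over all libraries. In bulk tissue, fewer cells of a type and less RNA per cell cannot be told apart.

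miR-275 stood at a similar level in 11 of the 12 libraries, and about 4 times higher in day 0 replicate 1. Its normalised level (CPM, with library sizes adjusted by TMM factors from edgeR) was 86491 CPM in day 0 replicate 1, 19757 in replicate 2 and 18486 in replicate 3. At day 2 it was 20931, 23719 and 21636 CPM in replicates 1, 2 and 3. Day 0 replicate 1 thus lay far above every other library, while the other day 0 libraries lay below all day 2 libraries. At day 4 miR-275 stood at 21424, 25144 and 20600 CPM, and at day 6 at 20386, 20909 and 26059 CPM. The ranges of days 2, 4 and 6 overlapped each other.

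In raw counts, miR-275 held 11.9% of day 0 replicate 1 (45980 counts, 95% Wilson interval 11.77% to 11.97%). In the other 11 libraries it held between 1.73% (day 6 replicate 1) and 2.45% (day 2 replicate 2), with a mean of 2.11%. These intervals cover counting error only. miR-275 had rank 4 among the miRNAs of day 0 replicate 1 and ranks 7 to 10 in the others. Its level in day 0 replicate 1 was 4.13 times its median over the other 11 libraries, which put it at rank 14 of 88 miRNAs ordered by their log2 excess in that library (2.05). Those with the larger excess included minor forms of miR-8-3p (5.78) and miR-125 (3.37), miR-100-5p (2.94) and miR-278 (2.87).

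miR-305 showed no such library. It stood at 8788, 12055 and 8859 CPM in day 0 replicates 1, 2 and 3. At day 2 it was 11658, 9631 and 8977 CPM, at day 4 it was 9404, 11689 and 8964 CPM, and at day 6 it was 10596, 9121 and 10841 CPM. With TMM factors all 4 ages overlapped, and day 0 replicate 1 was the lowest of the 12 libraries by a small margin. In raw counts miR-305 held 1.21% of day 0 replicate 1 and between 0.835% (day 6 replicate 2) and 1.27% (day 0 replicate 2) of the others. The overlap and the place of day 0 replicate 1 thus depended on the scaling. As raw shares, the day 0 libraries (1.21%, 1.27% and 0.989%) all lay above the day 6 libraries (0.898%, 0.835% and 0.874%). Only day 0 replicate 2 lay above day 0 replicate 1. miR-305 ranked between 13 and 20 in every library.

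**Figure D1:**
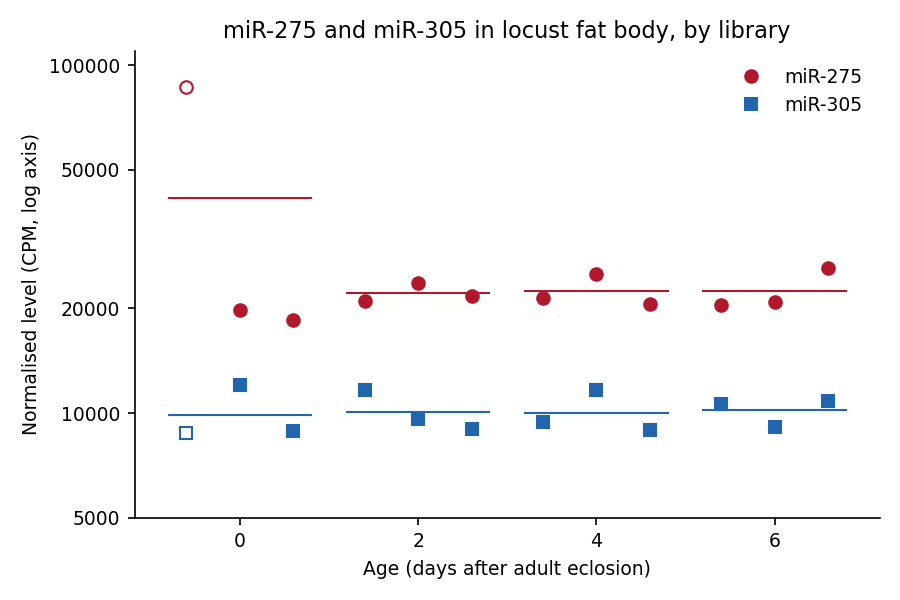
Normalised level (CPM, log axis) of miR-275 (circles) and miR-305 (squares) in each of the 3 libraries per age, with age in days on the horizontal axis; lines mark the mean of an age and open symbols are day 0 replicate 1. miR-275 stood at 86491 CPM in day 0 replicate 1 and between 18486 and 26059 CPM elsewhere, and miR-305 between 8788 and 12055 CPM in all 12 libraries.

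The comparisons with day 0 asked whether either miRNA moved after eclosion, and neither was called in any of them. By edgeR's quasi-likelihood test on all 12 libraries at a Benjamini-Hochberg adjusted p under 0.05, 0 of the 2 members were called at day 2, 4 or 6, against 13.6%, 29.5% and 40.9% of the 88 miRNAs tested. In the test over the 4 ages, which called 25% of the miRNAs, miR-275 had an adjusted p of 0.342 and miR-305 an adjusted p of 0.998. Without day 0 replicate 1 the same test called 38.2% of 89 miRNAs, and the members had adjusted p values of 0.357 and 0.980.

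For miR-275 the mean was 41578 ± 38901 CPM at day 0, 22095 ± 1450 at day 2, 22390 ± 2421 at day 4 and 22451 ± 3135 at day 6 (SD, n = 3 each), and no difference from day 0 passed the test. The log2 change at day 6 was -0.89 (SE 0.48, edgeR adjusted p = 0.171), with a 95% interval of -1.94 to 0.17. At day 2 it was -0.91 (SE 0.49) and at day 4 -0.89 (SE 0.48). Day 0 replicate 1 set the sign of these values: without it the log2 changes were 0.20 (SE 0.14), 0.25 (SE 0.14) and 0.27 (SE 0.14) at days 2, 4 and 6, and none was called. The adjusted p was then 0.133 at day 6, with an interval of -0.038 to 0.58, or a fold of 0.974 to 1.49.

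Refitted on the 11 libraries, miR-275 stood at 18356 ± 1535 CPM at day 0 (SD, n = 2), 21120 ± 1055 at day 2, 21841 ± 1841 at day 4 and 22127 ± 2703 at day 6 (n = 3 each). With TMM factors the order of the ages was thus day 0, 2, 4 and 6, and no pair of ages was called. Both remaining day 0 libraries (19442 and 17271 CPM) lay below the lowest of the 9 later ones (19931 CPM). This separation depended on the scaling. As raw shares of counts, day 0 replicates 2 and 3 held 2.08% and 2.06%, inside the later range of 1.73% to 2.45%. In this fit 21.3%, 38.2% and 48.3% of miRNAs were called at days 2, 4 and 6, and 0 of the 2 members.

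For miR-305 the 3 comparisons with day 0, scaled with TMM factors, gave log2 changes close to 0. They were 0.027 (SE 0.24) at day 2, 0.017 (SE 0.24) at day 4 and 0.041 (SE 0.24) at day 6, where edgeR gave an adjusted p of 0.897. The 95% interval at day 6 ran from -0.48 to 0.56, a fold of 0.719 to 1.47, so larger changes in either direction lay outside it. The age means were 9901 ± 1866, 10089 ± 1398, 10019 ± 1463 and 10186 ± 931 CPM (SD, n = 3 each), and none of the differences between neighbouring ages exceeded this spread. Without day 0 replicate 1 the log2 changes at days 2, 4 and 6 were -0.063, -0.044 and -0.0012. Their signs differed from those of the full fit.

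Among days 2, 4 and 6 the members' log2 changes in the fit of all 12 libraries were close to 0. The log2 change of miR-275 was 0.019 from day 2 to day 4, 0.0040 from day 4 to day 6 and 0.023 from day 2 to day 6 (SE 0.48 each), and that of miR-305 was -0.010, 0.024 and 0.014 (SE 0.24 each). Neither member was called. In these comparisons edgeR called 0%, 0% and 1.14% of the miRNAs, while 5, 6 and 12 had an unadjusted p under 0.05 and DESeq2 called 1, 0 and 3. The spread of miR-275 that sets its SE is shared over all 12 libraries, day 0 replicate 1 included. Without that library the change from day 2 to day 6 was 0.067 for miR-275 (SE 0.12) and 0.061 for miR-305 (SE 0.17). The interval for miR-275 was -0.21 to 0.34, in place of -1.02 to 1.07; 2.25%, 0% and 10.1% of miRNAs were then called.

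**Figure D2:**
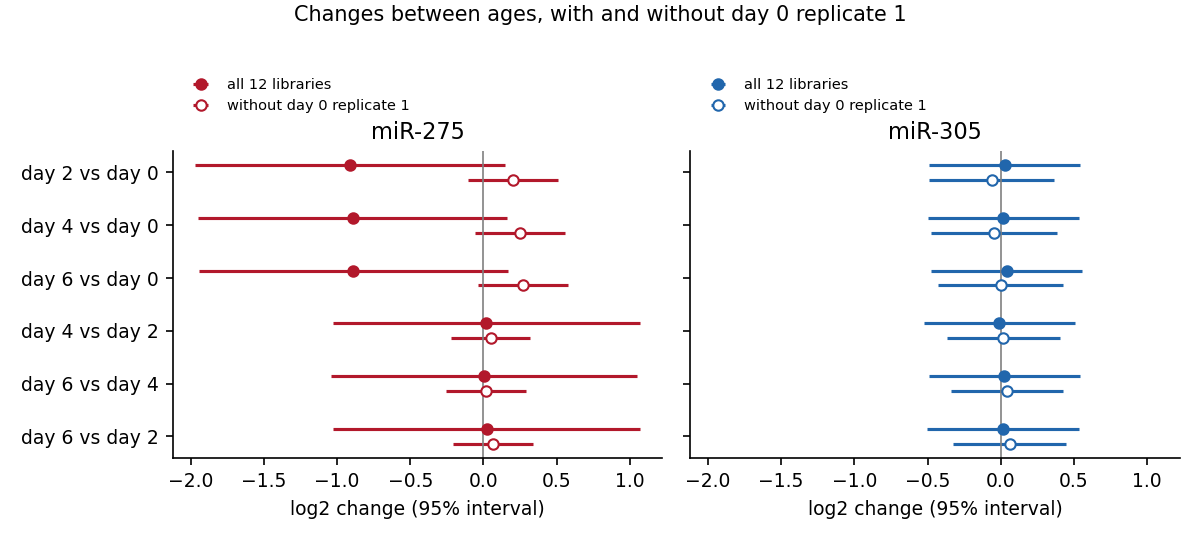
Log2 change (horizontal axis, with 95% interval) of miR-275 (left) and miR-305 (right) in the 6 comparisons between ages, from the fit of all 12 libraries (filled) and without day 0 replicate 1 (open). Every interval spans 0; the day 6 value of miR-275 against day 0 moves from -0.89 to 0.27, and that of miR-305 from 0.041 to -0.0012.

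With day 0 replicate 1 left out, the spread of the members over the time course was small beside that of the other miRNAs. Over the 11 libraries without day 0 replicate 1, the SD of the log2 level was 0.15 for miR-275, rank 1 of 89 miRNAs counted from the smallest, and 0.18 for miR-305, rank 3, against a median of 0.56. Between them stood miR-13a-3p, a member of the miR-2 family, with 0.149. The highest of the 11 libraries was 1.46 times the lowest for miR-275 and 1.43 times for miR-305. Scaled by total counts alone, miR-275 had rank 1 and miR-305 rank 7 of 88, and with RLE factors they had ranks 2 and 4. Abundant miRNAs have less counting error, so the ranks were also taken among the 20 most abundant. There, over the same 11 libraries, miR-275 and miR-305 had ranks 1 and 3 with TMM factors. They had ranks 1 and 7 with total counts and 2 and 4 with RLE factors. Over all 12 libraries miR-305 had the smallest SD (0.17) and miR-275 ranked 23 (0.59) of 88 with TMM factors. With total counts miR-305 ranked 2 (0.20) and miR-275 31 (0.73), and with RLE factors 2 (0.21) and 30 (0.69). These ranks describe the libraries and were not tested.

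**Figure D3:**
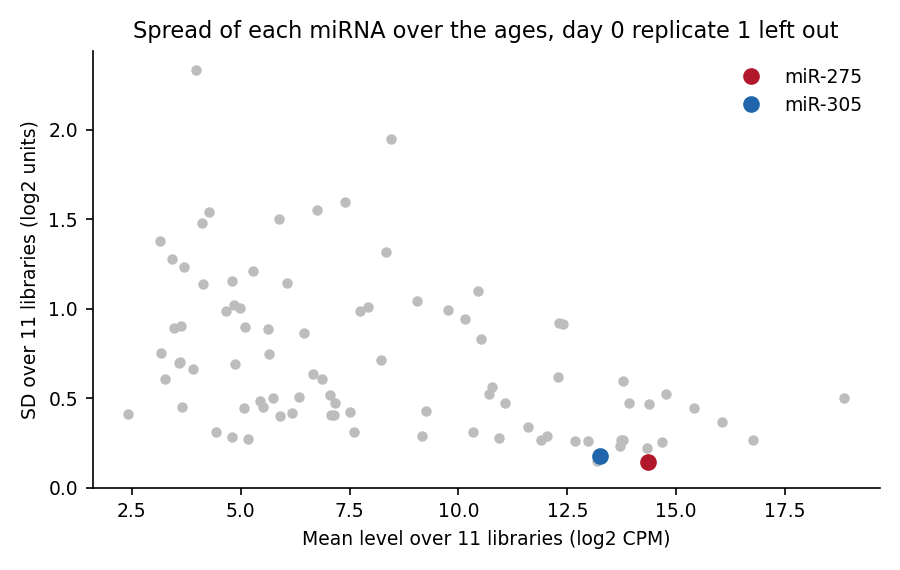
SD over 11 libraries (log2 units, vertical axis) against mean level (log2 CPM, horizontal axis) for 89 miRNAs, grey points, with miR-275 and miR-305 coloured. Day 0 replicate 1 is left out, and miR-275 (0.15) and miR-305 (0.18) lie at the lower edge, below the median of 0.56.

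The most abundant miRNA over the 12 libraries together was miR-8-3p, although in day 0 replicate 1 it stood below miR-275 (60218 against 86491 CPM). In flies miR-8-3p acts on growth through insulin signalling. It rose from 213762 ± 141779 CPM at day 0 to 692099 ± 38644 at day 6 (SD, n = 3 each; log2 change 1.69, SE 0.46, edgeR adjusted p = 0.0128). It rose by 1.29 (SE 0.16) without day 0 replicate 1. Scaled by total counts alone over all 12 libraries, the day 6 log2 change against day 0 was -1.49 for miR-275 and -0.42 for miR-305, neither called, and the median over all miRNAs moved from 0.17 to -0.32. The first of these values includes the 11.9% share of miR-275 in day 0 replicate 1; in the other day 0 libraries its share was 2.08% and 2.06%, and at day 6 it was 1.73%, 1.91% and 2.10%.

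The ratio of miR-275 to miR-305 needs no scaling, since both are counted in the same library. It compares counts, not molecules, because ligation and amplification differ between sequences. There were 9.84 counts of miR-275 for each count of miR-305 in day 0 replicate 1, 1.64 in replicate 2 and 2.09 in replicate 3. At day 2 the ratio was 1.80, 2.46 and 2.41, at day 4 it was 2.28, 2.15 and 2.30, and at day 6 it was 1.92, 2.29 and 2.40. Outside day 0 replicate 1 the ratio thus stayed within 1.64 to 2.46, with a mean of 2.16 ± 0.270 (SD, n = 11).

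The mean ratio was 2.22 ± 0.371 at day 2, 2.24 ± 0.0797 at day 4 and 2.21 ± 0.251 at day 6 (SD, n = 3 each). An exact permutation test over the 4 ages gave p = 0.963. Day 0 against the 9 later libraries differed by 0.54 on the log2 scale (1.69 against 1.15), with an exact two-sided permutation p of 0.482. Day 0 replicate 1, at a log2 ratio of 3.30 against 0.71 to 1.30 elsewhere, sets most of the spread in both tests. They therefore cannot decide whether the ratio differed with age. Without day 0 replicate 1 the difference was -0.26 (0.89 against 1.15), of the opposite sign, with an exact two-sided permutation p of 0.109. The exact permutation test over the ages then gave p = 0.424. Pairs of ages are 3 libraries against 3, where the smallest exact two-sided p is 0.1; the log2 differences of the later ages were 0.027 (day 4 minus day 2), -0.029 (day 6 minus day 4) and -0.0025 (day 6 minus day 2).

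**Figure D4:**
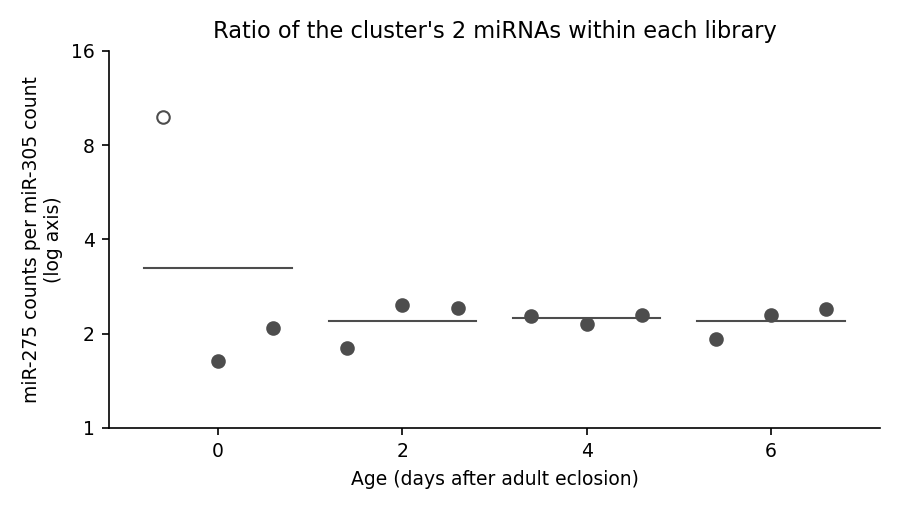
Counts of miR-275 per count of miR-305 (log axis) in each library by age in days; lines mark the geometric mean of an age and the open symbol is day 0 replicate 1. That library stands at 9.84 and the other 11 between 1.64 and 2.46.

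Across libraries no correlation between the 2 miRNAs was detected. Over the 12 libraries the Pearson correlation of their log2 levels was -0.25 (permutation p = 0.551) and Spearman's rho was -0.014 (permutation p = 0.974). Over the 11 libraries without day 0 replicate 1 the sign turned, with r at 0.31 (permutation p = 0.348) and rho at 0.12 (permutation p = 0.735). Over the 10 libraries left without the 2 farthest from the median of miR-275, which were day 0 replicate 1 and day 6 replicate 3, r was 0.24 (permutation p = 0.514). Both levels share the scaling factor of their library.

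The names under which each miRNA was counted gave a second view of miR-275. Of 30 arthropod names for miR-275, 25 held counts, in 9 distinct profiles, and all 25 were joined into the member. The 5 names of the opposite arm, miR-275-5p, were at 0 in every library. Of 32 names for miR-305, 24 held counts, in 10 profiles, of which 23 names were joined, and the 7 names of its opposite arm, miR-305-3p, were at 0. A total of 0 over all libraries allows up to 0.179 CPM of reads that match those names. No locust name existed for either miRNA in the table, so a locust opposite arm that differs from the listed names would not be seen.

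Names of miR-275 from other insects held a part of the aga-miR-275 count. The fly name dme-miR-275-3p held 96.5%, 97.6% and 97.5% of it in the day 0 libraries and 98.0% to 99.3% at the later ages. The honey bee name ame-miR-275 held 79.2%, 86.4% and 85.3% in the day 0 libraries. It held 94.0%, 90.9% and 91.5% at day 2, 90.9%, 90.5% and 90.7% at day 4, and 93.2%, 93.2% and 90.4% at day 6. This was not particular to the honey bee name. The silkworm name bmo-miR-275-3p, from a moth, held 79.1% to 86.3% at day 0 and 90.3% to 93.9% at later ages. Under both the fly and the honey bee name, every day 0 library thus lay below every later library.

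The mean share under the honey bee name was 83.6% ± 3.89 at day 0 (SD, n = 3) and 91.7% ± 1.37 at later ages (SD, n = 9), a difference of -8.08 percentage points. Without day 0 replicate 1 the difference was -5.86 points (85.8% against 91.7%). The shares were chosen after their values had been seen, so they are given as a description and no p is reported for them. The pea aphid name api-miR-275 held 31.5% of the count in day 0 replicate 1 and 45.9% to 58.7% in the other libraries, with a mean of 43.2% ± 10.6 at day 0 (SD, n = 3) and 50.8% ± 4.29 at later ages (SD, n = 9). Its ranges overlapped: day 0 replicate 3 stood at 52.1%. It was inferred from the repeated counts that a read is counted under each name it matches; which bases separate the names was not examined, and the part that moth and butterfly sequences play in day 0 replicate 1 was not tested.

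**Figure D5:**
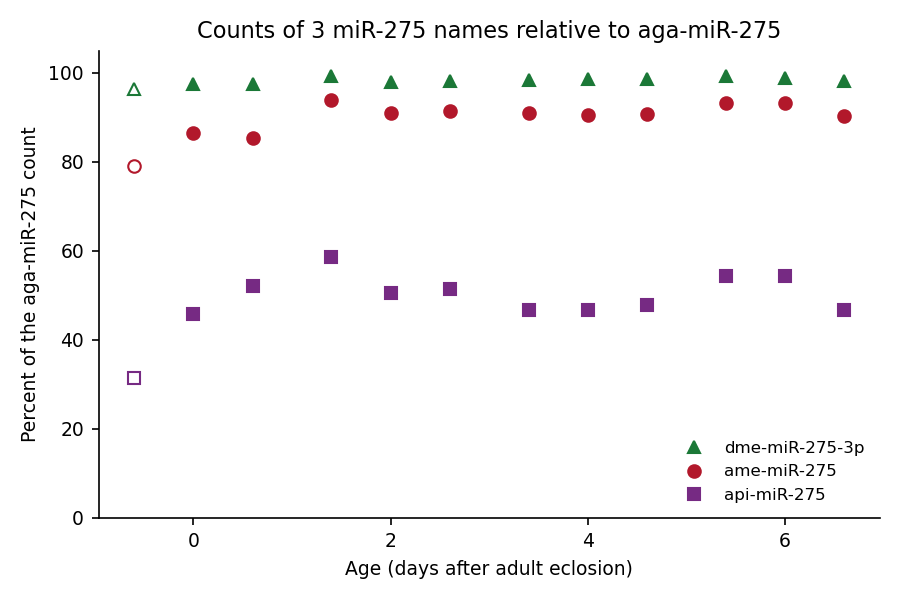
Counts of 3 miR-275 names (fly dme-miR-275-3p, honey bee ame-miR-275, pea aphid api-miR-275) as a percent of the aga-miR-275 count (vertical axis) in each library by age in days; open symbols are day 0 replicate 1. The honey bee name held 79.2% to 86.4% at day 0 and 90.4% to 94.0% later.

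The miRNAs whose levels ran most like each member were picked by the Pearson correlation of log2 levels over the 12 libraries, all of which share their scaling factors. For miR-275 they were miR-252-5p (r = 0.92), miR-998-3p (0.89), miR-2796-3p (0.86), miR-34-5p (0.81) and a minor form of miR-125 (0.80), all high in day 0 replicate 1. Over the 11 libraries without it, none of these was among the 5 nearest, which were miR-995-3p (0.78), miR-13b-3p (0.77), miR-750 (0.76), miR-279a (0.71) and miR-252a-3p (0.70). For miR-305 the nearest over 12 libraries was a minor form of bantam-3p, with an r of 0.55. This form held only 1 to 75 counts per library, so counting error is a large part of its spread. Next came miR-277-3p (0.50), miR-965-3p (0.46), miR-13b-3p (0.42) and miR-279d-3p (0.41). Over 11 libraries the nearest were miR-2 (0.66), miR-277-3p (0.44), miR-13b-3p (0.42), the minor form of bantam-3p (0.41) and miR-965-3p (0.37).

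A list of miRNAs tied to the fat body and reproduction in mosquitoes holds both members. Of its 11 miRNAs, 7 were measured, in 12 forms that include miR-275 and miR-305; miR-1174, miR-1890, miR-1891 and miR-309 held 0 counts. At day 6 against day 0, 2 of the 12 forms rose and 2 fell, where 40.9% of all miRNAs were called, with a median log2 change of -0.35 against 0.17 over all miRNAs. miR-8-3p rose by 1.69 and miR-8-5p by 1.18 (SE 0.25), whereas the developmental timer let-7 fell by 0.77 (SE 0.23) and a minor miR-8-3p form fell by 4.32 (SE 1.02). Without day 0 replicate 1, 3 forms rose and 4 fell, where 48.3% of all miRNAs were called, with a median of 0.20 against 0.29. The minor miR-8-3p form then fell by 1.61 (SE 0.40), less than in the full fit. Bantam, which promotes growth in flies, then fell by 0.72 (SE 0.19), and miR-34-5p rose by 0.98 (SE 0.37). For miR-34-5p the day 6 libraries of that fit stood at 2120, 1845 and 4751 CPM, so replicate 3 lay far above the others.

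On the list of insulin and energy balance miRNAs, which holds miR-305 and 7 others, 4 of 12 measured forms rose and 4 fell at day 6, where 40.9% of all miRNAs were called, with a median of 0.40 against 0.17 over all miRNAs. miR-33, a regulator of lipid metabolism in mammals, rose by 2.83 (SE 0.71). Its day 6 libraries stood at 913, 977 and 68.8 CPM, and replicate 3 lay within the day 0 range of 64.0 to 107 CPM. miR-278, which affects insulin response in flies, fell by 2.28 (SE 0.42). Without day 0 replicate 1 the counts were again 4 and 4, where 48.3% of all miRNAs were called, the median was 0.24 against 0.29, and miR-278 fell by 1.52 (SE 0.22). miR-14, which limits fat stores in flies, and miR-277-3p, which acts on amino acid breakdown, were not called in either fit.

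The lists held miRNAs of other tissues but none that defines fat body, so the tissue label was checked only against those. Summed over 4 forms, the muscle miRNAs stood between 316 CPM (day 0 replicate 1) and 3384 CPM at day 0, 520 to 1405 at day 2, 91.6 to 292 at day 4 and 138 to 847 at day 6. In the comparison of day 6 with day 0, 1 muscle form rose (a vertebrate form of miR-1) and 1 fell (miR-1), where 40.9% of all miRNAs were called. In the fit without day 0 replicate 1 another vertebrate form, pma-miR-1b, also fell, and the day 0 sums ran from 1610 to 3330 CPM. The gut miRNA miR-281, in 2 forms, stood at 559 CPM in day 0 replicate 1 and at 1548 and 111 CPM in replicates 2 and 3, and its other 2 listed miRNAs were at 0. Its sums were 193 to 1100 CPM at day 2, 82.9 to 267 at day 4 and 65.9 to 703 at day 6. The nervous tissue list, in 3 forms, stood at 549 to 918 CPM at day 0, with day 0 replicate 1 the highest of that age. Its sums were 613 to 953 CPM at day 2, 650 to 933 at day 4 and 539 to 1183 at day 6. miR-124, the defining miRNA of neurons, held at most 47 counts in any row over all libraries. The part of other tissues in the miR-275 level of day 0 replicate 1 was not tested.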

How the data were processed

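Small RNA libraries were made by a standard Illumina protocol from TRIzol RNA, per the labels' protocols. The deposited table holds raw counts per mature miRNA name, 26711 names under 115 species prefixes; the sources used here name neither an aligner nor a miRNA release, and 0 columns belonged to other samples. Ages and replicate numbers came from the sample titles. Rows with at least 120 counts (1513) were joined where the same miRNA number agreed within 25% plus 5 counts in every library, or other numbers within 5% plus 3 counts, giving 154 profiles, and then where a profile was a constant share (factor 1.5 or 2.5 counting SDs, 1 library outside allowed) of a more abundant one, giving 100. The 88 miRNAs kept by filterByExpr at a minimum count of 10 were scaled with TMM factors and tested in edgeR 4.0.16 under R 4.3.3, with limma 3.58.1 loaded. The quasi-likelihood test (glmQLFit, then glmQLFTest) used every library and a term for age. Standard errors are the log2 change divided by the square root of F, and 95% intervals use the matching degrees of freedom. Levels are normalised CPM, and log2 levels carry a prior count of 1. DESeq2 1.42.0 was an alternative. Exact tests enumerated every arrangement of libraries; correlations used 100000 permutations. Named miRNAs were the members, the 5 most alike for each, the most abundant and listed ones; others (those with excess in day 0 replicate 1 and the smallest spreads) were chosen after their values were seen. The members and lists were chosen with earlier results of these data known. The fit was also run on simulated data that held no outlying library, so that run does not cover the influence of day 0 replicate 1. Python 3.11.15, pandas 2.3.3, NumPy 2.4.6, SciPy 1.17.1 and matplotlib 3.10.9 were used.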

Additional observations from a re-analysis of the deposited data

How the results depend on the processing

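Neither miR-275 nor miR-305 was called in any comparison under any alternative that gave an adjusted p, over 278 alternative values. These include the tests over the 4 ages, which have no sign. Among the values with a sign, 70 had the other sign than in the main fit and lay between -0.42 and 0.27. DESeq2 returned no adjusted p for miR-275 in its 7 tests. For miR-305 against day 0, the log2 change at day 2 was -0.088 with RLE factors, -0.17 with total counts, -0.063 with only the libraries compared, -0.23 with all profiles summed and -0.088 with DESeq2. At day 4 it was -0.26, -0.039 and -0.17, and at day 6 -0.42, -0.032 and -0.14, with total counts, only the libraries compared and summed profiles. For day 4 against day 2 it was 0.11 with RLE factors, 0.040 with no filter, 0.10 with rows not joined, 0.013 with only the libraries compared, 0.063 with summed profiles and 0.11 with DESeq2. With total counts miR-305 stood at -0.15 for day 6 against day 4 and -0.25 for day 6 against day 2, and miR-275 at -0.076 for day 4 against day 2, -0.17 for day 6 against day 4 and -0.25 for day 6 against day 2. miR-275 for day 6 against day 4 was -0.0099 with RLE factors, -0.016 with no filter, -0.030 with rows not joined and -0.017 with only the libraries compared. The cause of these sign changes was not tested.

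Leaving out each library in turn, miR-275 ranged from -1.25 to 0.20 at day 2, -1.24 to 0.25 at day 4 and -1.27 to 0.27 at day 6 against day 0, positive only without day 0 replicate 1. Its ranges were -0.064 to 0.078 (day 4 against day 2), -0.12 to 0.076 (day 6 against day 4) and -0.098 to 0.12 (day 6 against day 2). miR-305 ranged from -0.075 to 0.19, -0.13 to 0.18 and -0.043 to 0.21 against day 0, and from -0.12 to 0.13, -0.071 to 0.13 and -0.033 to 0.17 in the other comparisons. The log2 ratio of day 0 against later ages ranged from -0.26 to 1.03. The difference in share under the honey bee name ranged from -9.47 to -5.86 points and that under the aphid name from -12.1 to -1.80 points. The dme-miR-305-5p count as a percent of the isc-miR-305 count, which overlaps it but does not contain it, averaged 100.3% at day 0 and 99.4% later, a difference of 0.86 points that ranged from 0.49 to 1.06.

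Same-numbered libraries showed no clear pairing: 7 of 18 same-numbered pairs had deviations correlated over 0.1 (range -0.69 to 0.36). With so few libraries per age, these correlations cannot show whether same-numbered libraries shared a batch or animals. Replicate 1 also carries a different library number in the sample descriptions at day 0 than at the later ages. With the replicate number as a block, the day 6 changes against day 0 were -0.69 for miR-275 and 0.055 for miR-305, and 22 miRNAs were called in place of 36 (14 in place of 22 over the 4 ages). Other totals against day 0 at days 2, 4 and 6 were compared with 12, 26 and 36 of 88 miRNAs in the main fit. With rows not joined they were 232, 346 and 426, but of 1641 rows tested. With only the libraries compared they were 0 of 88, 13 of 88 and 11 of 87. DESeq2 called 21 of 88 at day 2 and 34 of 88 over the ages. For day 6 against day 2, where 1 was called, the alternatives gave 0 to 9, the most without day 0 replicate 1. With 1 library left out they ranged from 6 to 24, 13 to 34 and 18 to 43, lowest without day 2 replicate 1, day 4 replicate 1 and day 6 replicate 2, and from 11 to 34 over the ages.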
